A study of Mus musculus with 2 samples.

Results

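The Hox genes are the 39 protein-coding genes of the GENCODE M21 annotation whose symbols are Hoxa, Hoxb, Hoxc or Hoxd followed by a number, out of 21938 protein-coding genes on chromosomes 1 to 19, X and Y. They lie in 4 clusters: 11 Hoxa genes on chr6:52155590-52260880, 10 Hoxb genes on chr11:96194316-96368256, 9 Hoxc genes on chr15:102921103-103036852 and 9 Hoxd genes on chr2:74668310-74765142 (mouse build mm10). Chromatin accessibility over these clusters was read from ATAC-seq, in which a transposase cuts and tags open DNA, of activated regulatory T cells. Regulatory T cells are CD4 T cells that express Foxp3 and hold immune responses in check. The cells came from male mice aged 4 months that carried the Foxp3CreERT2 and Rosa26YFP alleles, a Cre recombinase under the Foxp3 gene that tamoxifen switches on and a yellow fluorescent reporter. The labels give the cells' origin as bone marrow haematopoietic cells. There is 1 group, a single biological replicate sequenced as 2 technical replicate libraries, and the deposited peak lists cover both at once. No value therefore has an SD, no difference was tested, and the read depth is unknown.

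Hox proteins are homeodomain transcription factors that assign position along the head-to-tail axis of the embryo. Within a cluster the genes lie in the order in which they are expressed along that axis, with paralog group 1 at one end and group 13 at the other. Outside their expression domains the clusters are a classic target of Polycomb repression, which trithorax proteins oppose. In blood formation, Hoxa and Hoxb genes such as Hoxa9 and Hoxb4 are known for roles in stem and progenitor cells, and their expression is known to decline as those cells mature.

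A region here is a set of overlapping peaks merged together, and it counts as the promoter region of a gene if an annotated transcription start site (TSS) of that gene is at most 1000 bp away. The main list held peaks past an irreproducible discovery rate (IDR) of 0.05, a measure of how well a peak's rank repeats between 2 inputs, and is called thresholded. The pseudoreplicated list is longer and weaker. In the thresholded list, 5 of the 39 Hox genes had a promoter region, which is 12.8% with a Wilson 95% interval of 5.60 to 26.7 that covers counting error only. The share over all protein-coding genes was 49.1%. Among the 5 genes were Hoxa4, Hoxa7 and Hoxa10 on chromosome 6 and Hoxc6 on chromosome 15, while the other 34 had none. No Hoxb and no Hoxd gene had one, out of 10 and 9 genes, and upper interval limits there were 27.8% and 29.9%.

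Sequences around the summits of 3 open Hoxa promoters are shown because their known motif letters can be read directly. All are from the GRCm38.p6 assembly, which is mm10, written 5′ to 3′. At Hoxa4, the 101 bases centred on the strongest summit carry capitals at 3 kinds of match. These are the KLF/SP motif GGGCGG, which reads reversed and complemented, the MYC E-box CACGTG, and TGATNNAT, a motif of HOX proteins bound with PBX partners.

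Hoxa4 promoter region, chr6:52191922-52192022, plus strand: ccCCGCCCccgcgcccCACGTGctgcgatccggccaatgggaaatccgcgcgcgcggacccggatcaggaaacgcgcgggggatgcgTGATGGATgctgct

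At Hoxa7 and Hoxa10, the capitals mark a match to a short consensus of the motif of CTCF, the zinc finger protein that anchors chromatin loops. Both matches lie in the 5' UTR of the gene and both point the same way, along the strand of the genes. Only 30 bases around each are given.

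Hoxa7 promoter region, chr6:52221800-52221829, minus strand: aagaaaattCCAGGAGATGGCagtgtggct

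Hoxa10 promoter region, chr6:52240532-52240561, minus strand: tcgcagccgCCACGAGATGGCgcactcccg

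The CTCF match of Hoxa7 was centred 8.5 bp from the summit and that of Hoxa10 3.5 bp from it. Over all 26090 thresholded regions, 7.34% had a CTCF match within 100 bp of the summit and 2.02% had one centred within 10 bp. The limit of 10 bp was not a planned setting. Of the 1915 regions with a match, 528 had one centred within 10 bp, and the median distance was 20.5 bp. Both cluster matches were nearer than that median, and a match so near is not particular to them. CTCF bound between Hoxa genes is known to separate active from Polycomb-bound chromatin in mouse motor neurons. Whether CTCF was bound in these cells was not measured.

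The HOX-PBX letters occurred in 2 of the 9 thresholded regions inside the clusters, among them that of Hoxa4, against 4.04% of all regions. The MYC E-box occurred in the same 2 regions, against 6.61%. The KLF/SP letters were present in 3 regions, among them those of Hoxa4 and Hoxc6, against 31.1%, and the GATA factor motif AGATAA in 1 region, against 7.23%. None of the 9 held the ETS letters CCGGAAG (10.1% of all regions), RUNX TGTGGTT (9.49%), AP-1 TGANTCA (9.39%), NFAT GGAAAA (12.2%), STAT TTCNNNGAA (5.95%), forkhead TGTTTAC (3.09%), TCF/LEF CTTTGAA (4.29%), the E-box CAGGTG (15.1%) or the NRF1 consensus (3.61%). In the 29 cluster regions of the pseudoreplicated list, NFAT occurred in 5, ETS in 2, and AP-1, TCF/LEF and the E-box in 1 each. No share over that list is given here. Both strands were searched within 100 bp of the summit. With 9 regions these counts are descriptions, and absent letters say nothing of the factor.

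**Figure D1:**
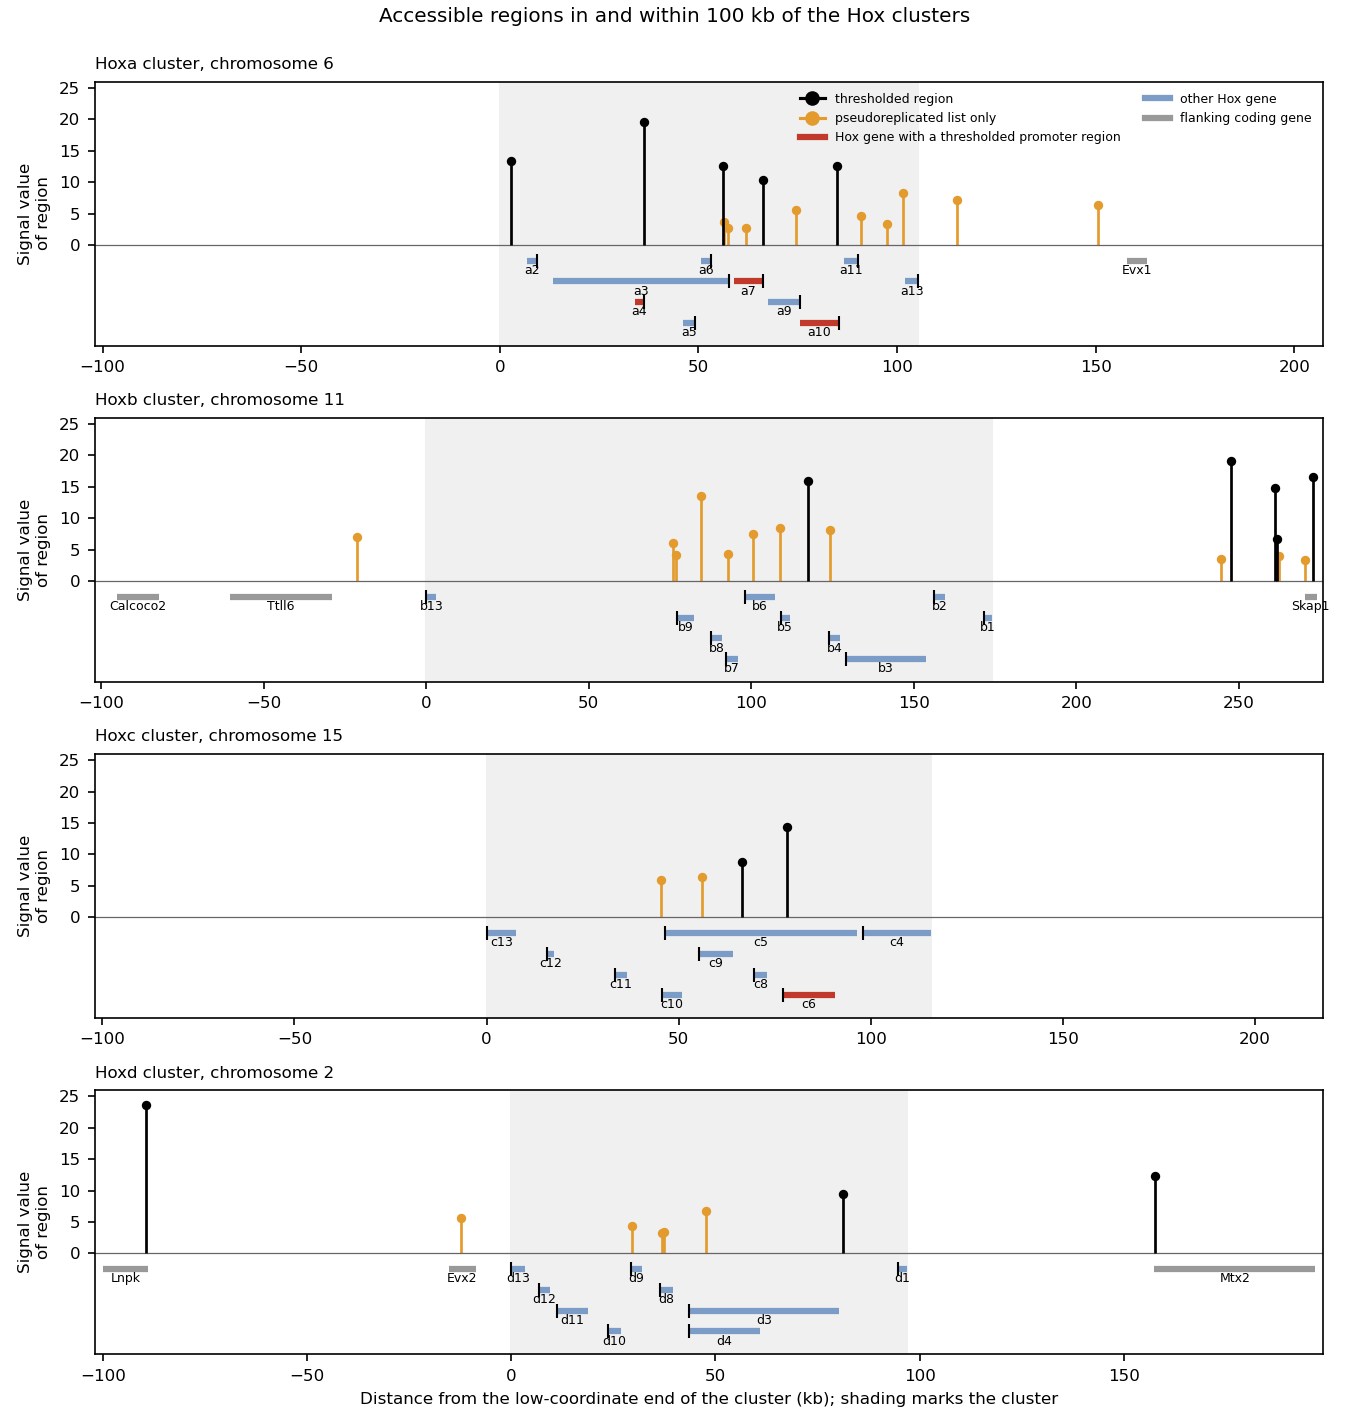
Signal value of each accessible region (vertical axis) against distance from the low-coordinate end of each Hox cluster in kb, with 100 kb on either side. Black stems are thresholded regions and orange stems occur only in the pseudoreplicated list; bars under the axis are genes, each Hox gene drawn with a tick at its 5' end (1 Hox gene is not drawn). Hoxa holds 5 thresholded regions, Hoxb 1, Hoxc 2 and Hoxd 1.

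Inside the clusters lay 9 regions of the thresholded list, over 492 kb in all. That is 1.83 regions per 100 kb, against 0.957 over the genome, and they covered 1.06% of the cluster bases, against 0.654%. The clusters differed in this. Hoxa, at 4.75 regions per 100 kb and 2.54% of bases, was above the genome on both measures, as was Hoxc at 1.73 and 0.886%. Hoxb, at 0.575 and 0.507%, was below it on both, and Hoxd was close to it at 1.03 and 0.651%. In the list with the IDR limit of 0.01, the 4 clusters together had 0.813 regions per 100 kb against 0.729 over the genome, and 0.503% of bases covered against 0.541%. Hoxc and Hoxd held 0 regions in that stricter list. In the thresholded list, the signal values of the 9 cluster regions ran from 8.77 to 19.6, with a median of 12.6. Signal is the peak caller's enrichment at the strongest summit, and its median over all regions was 13.6. Only 3 of the 9 were above that median of all regions, and 1 of the 9 was above the median −log10 p of 77.4. The 5 Hox promoter regions had a median −log10 p of 50.1 and a median width of 664 bp, against 125 and 825 bp over the 11374 regions at coding promoters.

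**Figure D2:**
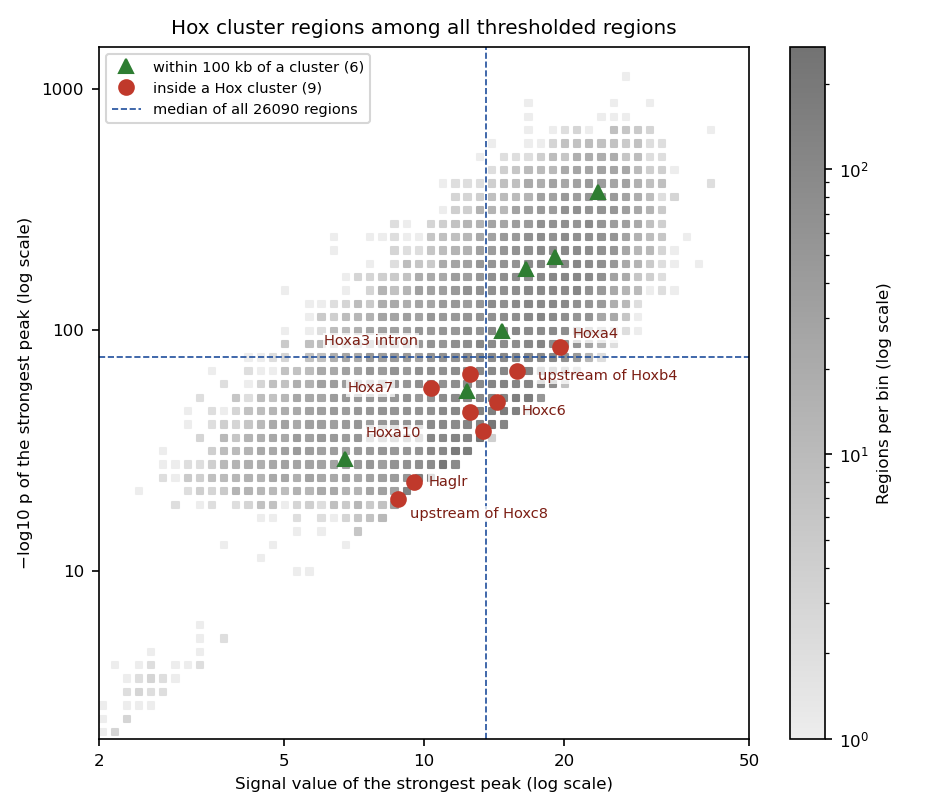
Signal value (horizontal, log scale) against −log10 p (vertical, log scale) of the strongest peak of each thresholded region. Grey squares count all 26090 regions per bin, red circles are the 9 regions inside the Hox clusters and green triangles the 6 within 100 kb of a cluster end; dashed lines are the medians over all regions. Of the red points only Hoxa4 is above both medians.

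The Hoxa cluster held 5 of the 9 regions and had the highest density of the 4 clusters. Hoxa4, a gene of the cervical and upper trunk domain, had the strongest region of any cluster, chr6:52191830-52192460, where the signal was 19.6, the −log10 p 85.3 and the IDR 0.00203. Its summit lay 219 bp upstream of the TSS, in an intron of a long Hoxa3 transcript, and 81.9% of all regions had a lower signal. The values of the 2 ranked inputs were 46.0 and 41.8 on the −log10 p scale, and so were nearly equal.

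Hoxa10, which acts in the uterus and in blood progenitors, had a region at chr6:52240165-52240854 with 3 summits, where the signal was 12.6 and the IDR 0.00609. The strongest summit lay 252 bp downstream of the TSS. Hoxa10 and Hoxa4 were the only Hox genes left with a promoter region when the IDR limit was tightened to 0.01, that is 2 of 39, against 45.6% of all genes. Hoxa7, a trunk gene, had a region at chr6:52221340-52222003 where the signal was 10.3 and the IDR 0.0108, and its summit lay 48 bp inside the gene. Its inputs were 38.8 and 22.1, a less even pair than at Hoxa4.

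A further Hoxa region, chr6:52211610-52211882, was at no promoter by the rule. Its signal was 12.5, its −log10 p 65.5 and its IDR 0.00342, and it was stronger by −log10 p than the promoter regions of Hoxa7 and Hoxa10. It lay between Hoxa6 and Hoxa7, 1373 bp inside the annotated 5' end of the longest Hoxa3 transcript, which starts near Hoxa7 and runs past Hoxa4, Hoxa5 and Hoxa6. With a window of 2500 bp it would count for Hoxa3, a gene needed for the thymus and parathyroid glands.

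Other Hoxa genes were closed in the thresholded list. The nearest region lay 6260 bp from Hoxa2, a gene of the hindbrain and branchial arches, 7023 bp from Hoxa5, which acts in the lung, and 2888 bp from Hoxa6. It lay 4186 bp from Hoxa9, the leukaemia-linked progenitor gene, and 4941 bp from Hoxa11, which patterns the forelimb and uterus. The longest distance in this cluster was the 19948 bp to Hoxa13, a gene of the digits and genital tract. Past Hoxa10, no region was found for 399 kb, a gap that holds the 5' ends of Hoxa11 and Hoxa13 and 1 further coding gene.

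Hoxb, the widest cluster at 174 kb, held a lone thresholded region. It was the widest in any cluster, at 882 bp with 4 summits, and its signal was 15.9, its −log10 p 67.4 and its IDR 0.00340. Its summit lay in no annotated gene, upstream of Hoxb4, known for expanding blood stem cells when overexpressed, and its edge lay 5294 bp from the microRNA gene Mir10a. It was assigned to Hoxb4 as the nearest coding TSS. On either side of it the cluster was empty: a gap of 235 kb held the 5' ends of Hoxb13, Hoxb9, Hoxb8, Hoxb7, Hoxb6 and Hoxb5, and a gap of 129 kb those of Hoxb4, Hoxb3, Hoxb2 and Hoxb1. Hoxb13, which acts in the prostate and sits apart from the rest, was 116674 bp from a region, the longest distance of any Hox gene.

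Hoxc held regions at chr15:102999029-102999806 and chr15:102987493-102987739. The former counted for Hoxc6, a gene of the upper thorax, with signal 14.3, −log10 p 50.1 and IDR 0.0118. It lay in an intron, between annotated start sites of the gene, 723 bp from the nearer. Hoxc6 was no longer called with a window of 500 bp, with 50% of the region required inside the window, or with protein-coding transcripts alone, which left 4 Hox genes. The latter region, 2983 bp upstream of Hoxc8, a gene of brachial motor neurons and the thorax, was weak, at signal 8.77 and IDR 0.0442. Only 0.675% of all thresholded regions had a lower −log10 p than its 19.8.

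The remaining Hoxc promoters were closed in this list. A gap of 244 kb ran over the 5' ends of Hoxc13, which acts in hair and nails, Hoxc12, Hoxc11, Hoxc10, Hoxc9 and Hoxc5. A gap of 153 kb ran over Hoxc4 at the other end, and over the other annotated TSS of Hoxc5, 14009 bp from the nearest region. Hoxc13 was 66390 bp from the nearest region.

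Hoxd held 1 region, chr2:74749169-74749798, and its IDR of 0.0480 was the closest of all to the limit. Its signal was 9.54 and its −log10 p 23.4, and 2.91% of all regions had a lower −log10 p. It lay in an exon of the noncoding gene Haglr, which is transcribed against the Hoxd genes between Hoxd3 and Hoxd1, and 3755 bp from the nearest Hoxd3 TSS. Upstream of it, 169.7 kb without a region held 10 coding 5' ends, 8 of them of Hoxd13, Hoxd12, Hoxd11, Hoxd10, Hoxd9, Hoxd8, Hoxd4 and Hoxd3. The first 3 of these pattern digits and forearm. Of the 26069 gaps between neighbouring regions in the genome, 126 (0.483%) held 10 or more coding 5' ends. This was the fullest of the gaps with a Hox 5' end. Others held as few as 1, and 22.2% of all gaps held 1 or more. Hoxd1 lay 13182 bp from a region.

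A Hox 5' end lay in 12 gaps, and the 6 that were over 100 kb wide held 27 of the 39. The median gap in the genome was 20.2 kb and the 90th percentile 154 kb, which 4 of the 12 exceeded. These are values per gap. The share of all coding 5' ends that lay in gaps over 100 kb is not given here. Across the 34 Hox genes with no promoter region, the nearest region was 1233 to 116674 bp away, with a median of 20322.5 bp. No such distance over all genes is given here. By paralog group, 3 of 15 genes of groups 4 to 8 and 1 of 16 of groups 9 to 13 had a promoter region. These shares have intervals of 7.05 to 45.2% and 1.11 to 28.3%, which overlap. By nearest TSS within 100 kb, 9 Hox genes had an assigned region, each with 1, against 53.1% of all genes.

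The pseudoreplicated list put more of the clusters on record. In it, 17 of 39 Hox genes had a promoter region (43.6%, interval 29.3 to 59.0), against 55.7% of all genes, and 23 had an assigned region, against 64.0%. The 12 added genes were Hoxa3, Hoxa9, Hoxa11, Hoxb4, Hoxb5, Hoxb7, Hoxb9, Hoxc5, Hoxc9, Hoxc10, Hoxd8 and Hoxd9. Hoxc5 and Hoxc10 were both called through the same region, chr15:102966484-102966899. It covered the Hoxc10 TSS and lay 544 bp from a Hoxc5 TSS. All 4 genes of paralog group 9, which specify the thorax and include the progenitor gene Hoxa9, were among these 17, although none passed the threshold. Their regions were weak, with signals from 4.19 to 6.47 and IDRs from 0.173 to 0.388. Group 7 was complete as well, at 2 of 2 genes. No gene of groups 2, 12 or 13 had a promoter region in either list. The count by cluster was 7 of 11 for Hoxa, 4 of 10 for Hoxb, 4 of 9 for Hoxc and 2 of 9 for Hoxd.

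**Figure D3:**
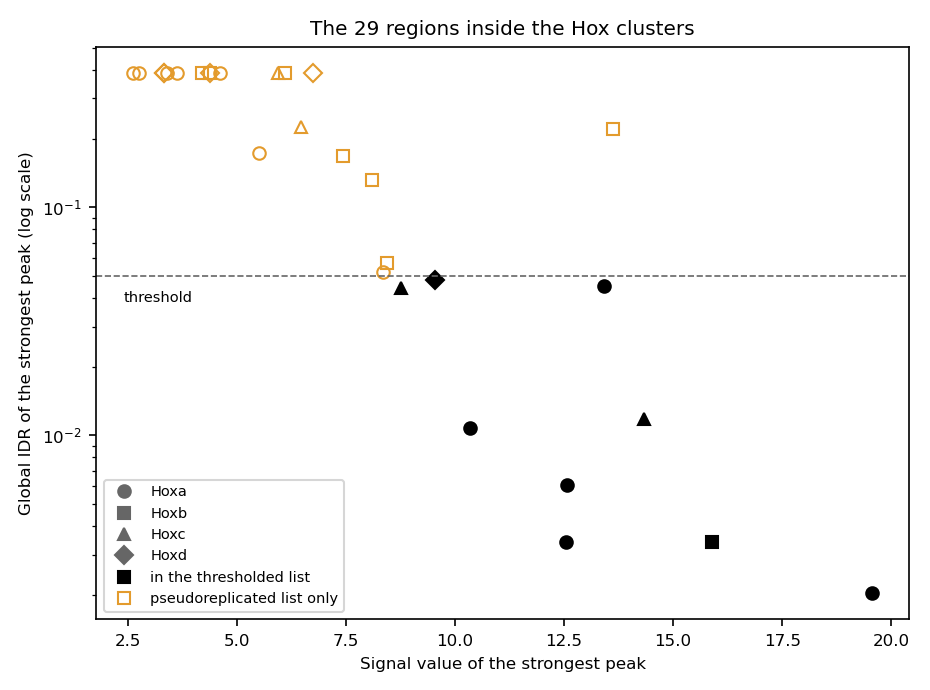
Signal value (horizontal) against global IDR (vertical, log scale) of the strongest peak in each of the 29 pseudoreplicated regions inside the Hox clusters, with the cluster as the marker shape. Filled black markers are in the thresholded list and open orange ones are not; the dashed line is the threshold of 0.05. A group of 13 open markers shares the highest IDR of the list, 0.388.

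The 29 pseudoreplicated regions in the clusters make 5.90 per 100 kb, against 1.84 over the genome. The 20 that were not in the thresholded list were weak, with signals from 2.63 to 13.6, a median of 5.06 and a median −log10 p of 10.5. Of these 20, 14 lay at the promoter of a coding gene, a share for which no value over the genome is given here. Of the 20, 13 had the IDR of 0.388 that is the ceiling of the ranked list, so most were far from the limit. The values just outside it belonged to a region past the 3' end of Hoxa13, in an exon of a noncoding transcript (chr6:52257007-52257236, signal 8.34, IDR 0.0521) and to the Hoxb5 promoter (chr11:96303135-96303401, signal 8.44, IDR 0.0568). At the Hoxb4 promoter the signal was 8.10 and the IDR 0.132. The strongest below the limit, chr11:96278838-96279093 upstream of Hoxb8, had a signal of 13.6, above that of 6 of the 9 thresholded regions. Its inputs were uneven, at 28.6 and 9.17, and its IDR was 0.221.

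The 2 inputs also differed at the thresholded regions. The first was higher in 7 of 9, by up to 1.76-fold, while over all 48668 thresholded peaks it was higher in 49.4%. The sources used here do not say what the inputs are, and the part of this difference in the calls was not tested.

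CpG is the dinucleotide whose islands mark most widely open promoters, so the Hox promoters were also set beside all others by CpG content. In the 250 bases before to 50 after the 5' end, the observed/expected CpG ratio of the Hox genes had a median of 0.745, against 0.525 over all genes. Only the outermost annotated 5' end of each gene was read, which need not be that of its main transcript. Hoxa9, for example, has 5 TSSs and was read at an end with 34.3% GC. Hoxd3 and Hoxd4, with 5' ends at 74711927 and 74711929, were read over nearly the same bases. CpG-rich promoters (a ratio of 0.75 or above and GC of 55% or above) numbered 11 of the 39 Hox genes, a share of 28.2% that was near the 26.4% over all genes. They included Hoxa4, Hoxa5, Hoxa6, Hoxa13, Hoxb5, Hoxb9, Hoxc8, Hoxc10, Hoxd1 and Hoxd13. Of these, 2 had a promoter region, Hoxa4 among them (18.2%, interval 5.14 to 47.7), against 81.0% of the 5796 CpG-rich promoters of all genes. In the pseudoreplicated list the counts were 5 of 11 and 87.0%. Among the 28 other Hox genes, 3 had a promoter region (10.7%, interval 3.71 to 27.2), against 37.7% of all genes in that class. The share of Hox genes was thus below that of all genes in both CpG classes of the thresholded list. In the pseudoreplicated list, 12 of these 28 had one (42.9%, interval 26.5 to 60.9), close to the 44.4% of all genes in that class.

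**Figure D4:**
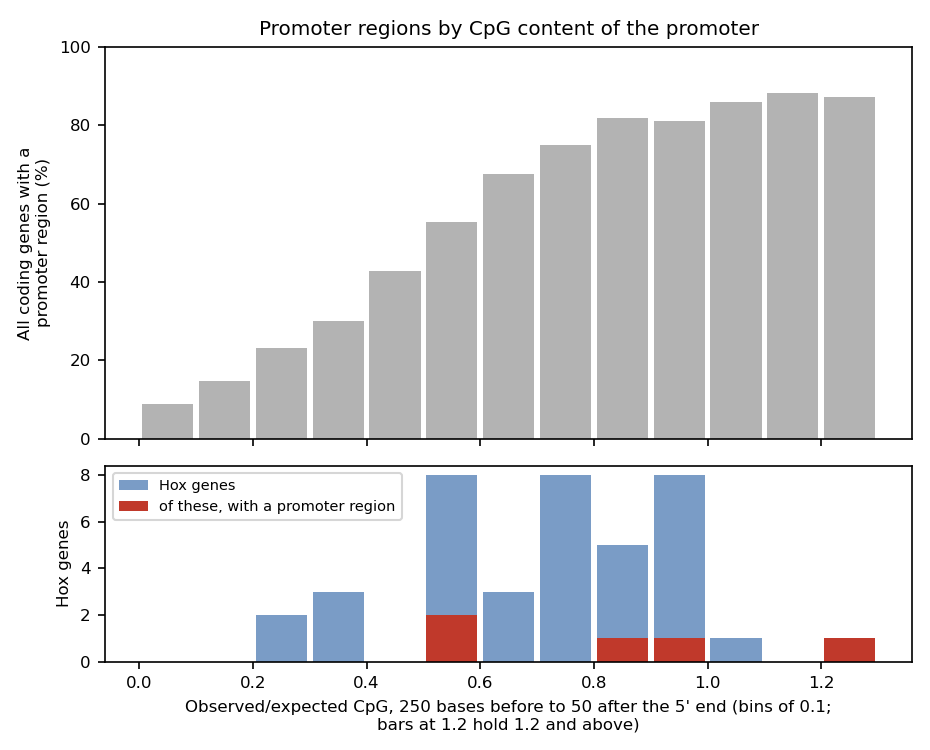
Top, share of all protein-coding genes with a thresholded promoter region (%) in bins of 0.1 of the observed/expected CpG ratio at the 5' end; bottom, number of Hox genes per bin (blue), with those that had a promoter region in red. The share over all genes climbs from 8.92% in the lowest bin to 88.3%, while the red Hox genes are 1 or 2 per bin at most.

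The most CpG-rich Hox promoter, Hoxa4 with a ratio of 1.23, was open and had the strongest region. Hoxa5, with 1.02, and Hoxc11, with 0.984, had no promoter region in either list. Hoxa7 and Hoxa10 were open with ratios of 0.540 and 0.596. The medians were 0.854 for the 5 open genes and 0.744 for the 34 others, and both sets spanned a wide range. As whole spans, the clusters held 24.4 CpG per kb against 8.26 in the genome, and 18.2% of their bases were masked as repeats against 36.4%.

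The clusters also hold noncoding genes. Of 18 long noncoding RNA genes inside them, 2 had a region within 1000 bp of a TSS, among them Haglr in Hoxd, against 17.7% of such genes in the genome. None of the 7 microRNA genes had a region, against 8.76%.

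The best known of these are 6 genes, of which the miR-10 and miR-196 families are known to target Hox transcripts. RefSeq (GRCm38.p6) held mature sequences for all 6, and those of the 2 families are given because their members sit in different clusters. The seed, bases 2 to 8, is in capitals. The copies in Hoxb (miR-10a) and Hoxd (miR-10b) share 1 seed, and those in Hoxa (miR-196b) and in Hoxb and Hoxc (miR-196a) share another.

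miR-10a-5p: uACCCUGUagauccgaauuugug

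miR-10b-5p: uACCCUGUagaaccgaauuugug

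miR-196a-5p: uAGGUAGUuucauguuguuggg

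miR-196b-5p: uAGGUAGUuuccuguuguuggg

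The distance to the nearest thresholded region was 5294 bp for Mir10a, 23099 bp for Mir10b, 8162 bp for Mir196b, 14143 bp for Mir196a-2, 15104 bp for Mir615 and 45826 bp for Mir196a-1. Members of 1 seed family thus differed widely in how near an open region was. In the pseudoreplicated list a weak region, chr6:52229952-52230248, covered Mir196b itself, at signal 5.50 and IDR 0.173. That region also counted for Hoxa9, so the gene it serves cannot be told apart.

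Within 100 kb of the cluster ends there were 6 thresholded regions, or 0.75 per 100 kb, and none within 50 kb. None flanked Hoxa or Hoxc. The nearest regions outside Hoxa lay 142 kb below and 379 kb above it, and those outside Hoxc 177 kb and 116 kb away. The Hoxd cluster lay between the promoters of Lnpk, an endoplasmic reticulum protein, and Mtx2, of mitochondrial protein import. The Lnpk region, chr2:74578276-74579478, reached signal 23.6 and −log10 p 375, and the Mtx2 region, chr2:74825415-74826619, had 12.4 and 56.0. The Lnpk region, 88.8 kb from Hoxd13, was stronger than every region inside the 4 clusters. Evx2, the homeobox gene next to Hoxd13, and Evx1, its counterpart beside Hoxa13, had no promoter region in either list.

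The other 4 flanking regions lay beyond Hoxb1, within 23 kb of Skap1, an adaptor of T cell receptor signalling. They started at 96441359, 96455031, 96455663 and 96466940 on chromosome 11 and had signals of 19.1, 14.7, 6.76 and 16.5, with −log10 p of 201, 99.5, 29.2 and 179. By −log10 p, 3 of them were above all 9 cluster regions. Skap1 had 7 assigned regions but no promoter region in the thresholded list, and a weak promoter region in the pseudoreplicated list with a signal of 3.37. On the Hoxb13 side, Calcoco2, an autophagy receptor, and Ttll6, a tubulin-modifying enzyme, had none in either list. No coding gene other than Hox genes starts within 100 kb of Hoxc.

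Genes that work with Hox proteins or on Hox clusters were set beside them as lists, by count, against the 49.1% of all protein-coding genes. Of 11 TALE cofactors, the homeodomain partners of Hox proteins, 7 had a promoter region (63.6%, interval 35.4 to 84.8, which holds that share), among them Tgif1 with 6 assigned regions, Meis3 and Pbx3. Meis1, Meis2, Pbx2 and Pknox2 had none in the thresholded list. In the pseudoreplicated list 10 of the 11 had one, all but Meis1, against 55.7% of all genes. Meis1, the partner of Hoxa9 in progenitors and leukaemia, had no assigned region in either list. Of 30 Polycomb genes 28 had a promoter region (93.3%, interval 78.7 to 98.2), such as Ezh2, the H3K27 methyltransferase, with a signal of 18.8, its partners Jarid2 and Aebp2, and Pcgf5 with 21.3. Cbx6 and Pcgf2 were without one, Cbx6 in the thresholded list only.

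Of 15 trithorax and opposing genes 14 had a promoter region (93.3%, interval 70.2 to 98.8), such as Kmt2a with a signal of 8.57, Setd1b and Dot1l. Kdm6b, an H3K27 demethylase gene with 4 assigned regions, did not. All 8 insulation genes, such as Ctcf, Nipbl, Stag1 and Stag2, had a promoter region, with a lower interval limit of 67.6%. Of 9 genes that act upstream on early Hox expression 4 had one (44.4%, interval 18.9 to 73.3), a share close to the 49.1% of all genes. These were the retinoic acid receptors Rara and Rarg, with Egr2 and Gdf11. The caudal genes Cdx1, Cdx2 and Cdx4 and the receptor gene Rarb were among those without one. Of 8 haematopoietic partners 6 had one (interval 40.9 to 92.9%, which holds the 49.1%), such as Runx1 with 11 assigned regions, Mllt3, Tet2 and Dnmt3a. Hlf and Mecom, known from blood stem cells, did not, though Hlf had 2 promoter regions in the pseudoreplicated list.

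**Figure D5:**
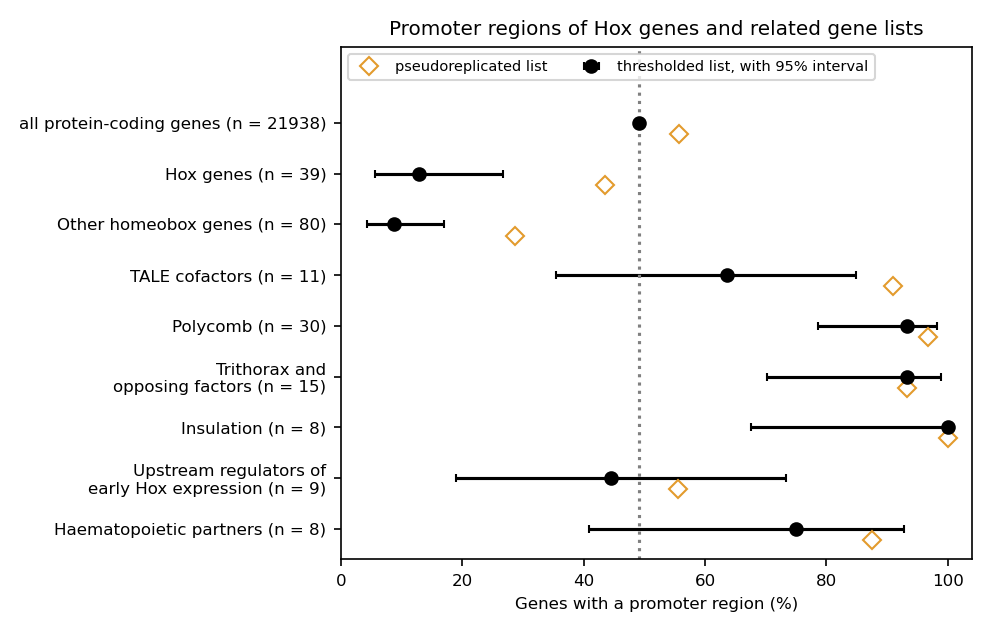
Share of genes with a promoter region (%) for the Hox genes, lists of related genes and all protein-coding genes (dotted line). Black circles are the thresholded list with Wilson 95% intervals and orange diamonds the pseudoreplicated list. Hox genes sit at 12.8% and other homeobox genes at 8.75%, while Polycomb genes sit at 93.3%.

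Among 80 other homeobox genes of development outside the clusters, 7 had a promoter region (8.75%, interval 4.30 to 17.0), a share whose interval overlaps that of the Hox genes. They included Satb1, a chromatin organiser of T cells with 8 assigned regions, Zeb1, Adnp, Cux1, Homez and Six5. Of the 25 CpG-rich promoters on that list, 1 had a region, against 2 of 11 for the Hox genes and 81.0% over all genes. In the pseudoreplicated list the share was 28.8%, against 43.6% for the Hox genes.

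The labelled cell type was checked by its markers. In the thresholded list, promoter regions were found at 5 of 6 regulatory T cell genes, which include Foxp3. The interval of this share, 43.6 to 97.0%, holds the 49.1% of all protein-coding genes. The gene without one was Cd4, which had 1 assigned region and a promoter region in the pseudoreplicated list only. The thresholded list held none at 3 B cell, 4 myeloid, 2 NK cell and 5 stem and progenitor genes. Regions away from promoters were assigned to some of these, namely 8 to 1 of the NK cell genes, 6 in all to 3 of the stem and progenitor genes and 1 to a myeloid gene, while the B cell genes had 0. Upper interval limits of the promoter shares were 56.1% for B cell, 49.0% for myeloid, 65.8% for NK cell and 43.4% for stem and progenitor genes. The B cell and NK cell intervals thus hold the 49.1% of all genes. Markers of other cells had a promoter region at 1 of 2 CD8 T cell, 1 of 3 erythroid and 2 of 3 stroma and epithelium genes. The intervals of these shares also hold the 49.1%. The 2 stroma and epithelium genes were Col1a1 and Pecam1, and the CD8 T cell gene was Cd8b1, with a signal of 11.4. The part of other cells in the Hox regions was not tested.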

How the data were processed

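ATAC-seq peaks of 2 technical replicate libraries of activated regulatory T cells were analysed as the authors deposited them, on mm10 per the file headers. Per the deposited README, the lists derive from 1 alignment. No aligner, peak caller, version or shift of read positions is given in the sources used here. Signal, as deposited, is the caller's enrichment per peak, and the deposited −log10 columns hold its p-value, the global IDR and a ranking value for each of 2 inputs. The deposited score runs to 1000. Starts, ends and summits are in bp. These values are the authors' own, and no file used holds values of a single library.

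Overlapping peaks (by at least 1 bp) on chromosomes 1 to 19, X and Y were merged, and the strongest peak gave a region its values. Genes and TSSs came from GENCODE M21. A region was assigned to the nearest coding TSS within 100 kb of its summit. Sequence and CpG came from GRCm38.p6, with CpG-rich promoters defined by an observed/expected ratio of 0.75 and GC of 55%. The stricter list had an IDR of 0.01 or below. Shares carry Wilson 95% intervals. Hox genes, coding genes within 100 kb, cluster noncoding genes with a region and the 6 microRNAs are named, as are up to 4 members of a list with most regions and, where few, members without one. A few genes that this rule would name, and 1 sequence, are not reported here, though counts include them. The members and lists were chosen with earlier results of these data known. Python 3.11.15, numpy 2.4.6, pandas 2.3.3, scipy 1.17.1, pysam 0.24.0 and matplotlib 3.10.9 were used, and the scripts were tested on simulated data. Alternatives were other lists, promoter windows, TSS sets, merging rules, flank widths, assignment distances and CpG limits.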

Additional observations from a re-analysis of the deposited data

How the results depend on the processing

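Of 36 alternative values, 14 were within set limits of the main value, which were 1.5 times for a count and its 95% interval for a share, and 22 were outside them. The interval of the 11 CpG-rich Hox genes is wide, so its share of 18.2% counts among the 14 although it was 45.5% with the pseudoreplicated list, 9.09% with the stricter list and 13.3% with a CpG limit of 0.6. With the pseudoreplicated list, and with the union of both lists, 17 Hox genes in place of 5 had a promoter region, 23 in place of 9 had an assigned region, 29 in place of 9 regions lay in the clusters and 13 in place of 6 in the flanks. The share of all genes with a promoter region was then 55.7% in place of 49.1%. With the stricter list the Hox counts were 2 genes, 4 assigned genes and 4 cluster regions, and the share of all genes 45.6%. Unmerged peaks numbered 18 in the clusters and 12 in the flanks. Flanks of 50 kb held 0 regions and flanks of 200 kb held 20. The share of all genes was 48.3% with a window of 500 bp, 50.9% with 2500 bp, 45.2% with 1 TSS per gene and 48.0% with protein-coding transcripts only, an alternative chosen after seeing the data. Under every promoter alternative run, the share of Hox genes was below that of all genes. With the pseudoreplicated list the interval of the Hox share, 29.3 to 59.0%, holds the 55.7% of all genes. For the calls that moved with the list or the IDR limit, the cause was not tested.

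Depth is unknown, so a closed promoter means no peak in these lists, and fewer open cells and less open chromatin per cell cannot be told apart. Leaving out each library in turn was not possible, since no file used holds values of a single library. No paired analysis was possible because there is 1 group and the lists pool both libraries. With 1 biological replicate there is no spread between animals to give.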
